A study of Homo sapiens with 12 samples.

Results

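The genes described here are 46 genes of DNA replication origins and forks, found by matching the Ensembl gene IDs of the count table to gene symbols. They were chosen by name with earlier results of these data known, so their shares of calls are not those of a list fixed in advance. All 46 were among the 39266 genes in the table and among the 20820 genes that passed the filter on low counts, and their lowest count in any library was 28. They were measured by RNA sequencing in PC9-OR cells, which the labels give as a non-small cell lung cancer line and the series title as a model of osimertinib resistance. PC9 is an established lung adenocarcinoma line with an activating EGFR mutation. The 4 groups of 3 libraries each received dauricine with osimertinib (DAC+OSI), osimertinib alone (OSI), dauricine alone (DAC) or neither compound (Control). Osimertinib is an inhibitor of mutant EGFR, and dauricine is a plant alkaloid. All groups are the same cell line, and doses, exposure times and the treatment given to Control cells are not stated in the labels. The study set out to compare the compounds given alone with the compounds given together.

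DNA replication starts at origins, where the origin recognition complex with CDC6 and CDT1 loads the MCM2 to MCM7 ring onto DNA in the G1 phase of the cell cycle, a step called licensing. At the start of S phase the kinase CDC7 with DBF4, and further factors, convert the loaded ring into the active helicase by adding CDC45 and the GINS complex, which is called origin firing. The fork then moves with DNA polymerases, the sliding clamp PCNA, its loader, nucleases and ligase, while fork protection and chromatin factors travel with it. Many of these genes are transcribed toward S phase under the control of E2F transcription factors, so their messenger RNA is high in cycling cells and low in resting cells. In bulk samples, fewer cells in S phase and less RNA per cell cannot be told apart.

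Total counts ran from 24.9 to 66.9 mega-counts per library, the lowest being DAC+OSI 2. Levels are given as CPM, the counts of a gene per mega-count of its library on the scale of the trimmed mean of M values. A count of 0 allows up to 3 counts, which is 0.0449 to 0.120 CPM, so the depth sufficed to see every one of these genes. Nothing in the labels says that the 3 libraries of a group came from separate cultures, so the p-values reflect only how these libraries vary, which may be technical variation. Epithelial markers were abundant in all 12 libraries, with 6 of 6 above 1 CPM and summed levels of 12800 to 20203 CPM in DAC+OSI, 12367 to 14199 CPM in OSI, 14774 to 16015 CPM in DAC and 9713 to 12366 CPM in Control. Of the lung adenocarcinoma markers 0 of 3 were above 1 CPM in all 12 libraries, and NKX2-1 (at most 0.148 CPM) and SFTPB (at most 0.0964 CPM) were near 0. Fibroblast markers summed to 27.3 to 94.7 CPM in DAC+OSI, 7.32 to 9.53 CPM in OSI, 10.4 to 11 CPM in DAC and 11.2 to 22.3 CPM in Control. That sum was mostly COL1A1 (at most 78.2 CPM), with COL1A2 at most 13.6 CPM, PDGFRB at most 2.14 CPM and COL3A1 at most 0.681 CPM. DCN (at most 0.0972 CPM) and LUM (at most 0.278 CPM) were near 0. Leukocyte markers summed to 12.1 to 35.9 CPM in DAC+OSI, 5.64 to 6.13 CPM in OSI, 12.7 to 15.03 CPM in DAC and 7.15 to 10.6 CPM in Control. Endothelial markers summed to 12.4 to 28.4 CPM in DAC+OSI, 10.6 to 13.2 CPM in OSI, 8.64 to 9.92 CPM in DAC and 4.95 to 5.33 CPM in Control. In DAC+OSI the upper end of each of these sums came from DAC+OSI 2 alone. DAC+OSI 1 and 3 had 12800 and 12830 CPM of epithelial and 27.3 and 41.4 CPM of fibroblast markers. They had 12.7 and 12.1 CPM of leukocyte and 12.4 and 13.7 CPM of endothelial markers. The part of these marker differences in the results was not tested.

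DAC+OSI 2 and Control 2 stood apart from the other 2 libraries of their groups in a way that followed the GC content of the transcript. Across all genes, the deviation from the group mean correlated with GC content at a Spearman rho of 0.573 in DAC+OSI 2 and 0.558 in Control 2, against -0.52 to 0.063 in the other libraries. Of the 17 replication genes with over 50% GC, DAC+OSI 2 was the highest of its group in 13, with a median of 0.58 log2 units above the mean of its 2 fellow libraries. Of the 29 genes with up to 50% GC it was the lowest in 23, with a median of -0.52. Against this trend, DAC+OSI 2 was the highest in GMNN (43.6% GC, 1.06) and PCNA (45.3% GC, 0.91). It was the lowest in SLBP (50.7% GC, -0.72). Control 2 was the highest in 13 of the 17 (median 0.21) and the lowest in 21 of the 29 (median -0.25). In OSI, library 2 was the highest in 7 of the 17 and the lowest in 7 of the 29, and in DAC, library 2 was the highest in 14 of the 17 and in 21 of the 29. The results below are therefore also given, where they move, for a fit without DAC+OSI 2 and Control 2, called the 10-library fit, and for a fit with a correction for the trend with GC content.

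**Figure D1:**
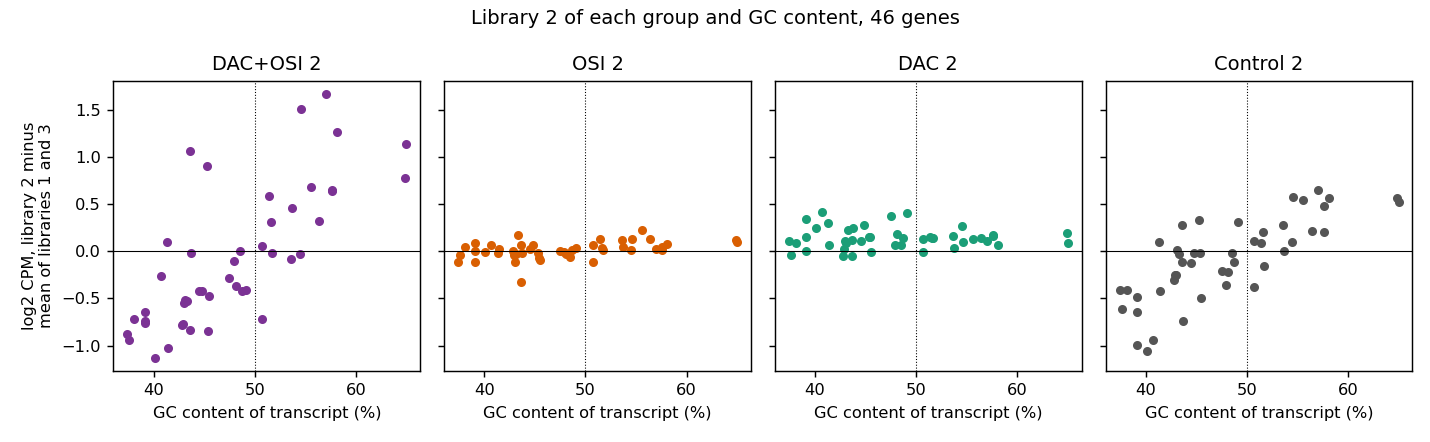
Each point is 1 of the 46 replication genes, with the GC content of its transcript in percent on the x axis and the log2 CPM of library 2 minus the mean of libraries 1 and 3 on the y axis, in a panel each for DAC+OSI, OSI, DAC and Control. In DAC+OSI and Control the points climb with GC content (medians 0.58 and 0.21 above 50% GC, -0.52 and -0.25 up to 50%), while in OSI and DAC the medians lie between -0.01 and 0.14 in both GC classes.

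Most of the replication genes had their highest mean level in OSI and their lowest in DAC+OSI. The mean log2 CPM of the 46 genes was 3.69 to 3.82 in the DAC+OSI libraries, 5.11 to 5.21 in OSI, 3.96 to 4.11 in DAC and 4.19 to 4.27 in Control, so the 4 groups did not overlap. Against Control, OSI raised 37 of the 46 and lowered 0, in a fit where 10.6% of all genes tested were called higher and 8.23% lower. Against OSI, DAC+OSI lowered 43 and raised 0, where 7.96% of all genes were called lower and 9.01% higher. Against Control, DAC+OSI lowered 20 and raised 0, where 12.8% were called lower and 15.4% higher. DAC alone lowered 5 and raised 0 against Control, where 4.11% were called lower and 5.33% higher. Calls are those with an adjusted p under 0.05 in edgeR's quasi-likelihood test with Benjamini-Hochberg adjustment over all genes tested. These comparisons share libraries, since OSI and Control each enter several of them.

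**Figure D2:**
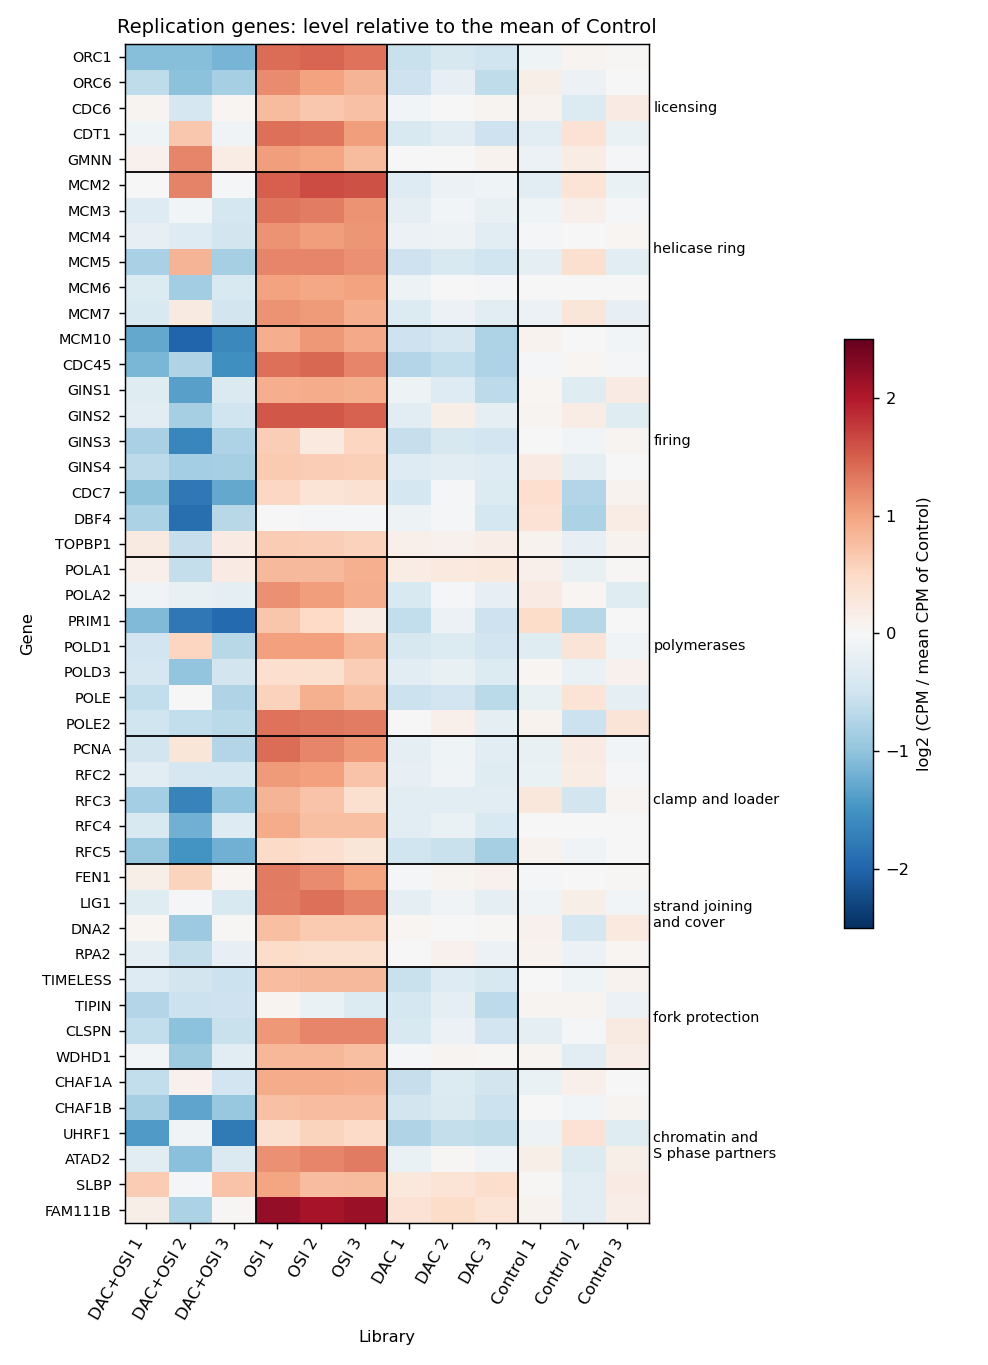
Heat map of the 46 replication genes (rows, by role) in the 12 libraries (columns, grouped as DAC+OSI, OSI, DAC and Control), with the colour giving log2 of CPM over the mean CPM of Control. OSI columns are red for nearly every gene (median fold change of 0.93 on the log2 scale against Control), DAC columns are pale (median -0.26), and DAC+OSI columns are blue for many genes (median -0.43), with DAC+OSI 2 unlike its fellows in rows such as MCM5, MCM2 and GMNN.

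Sequences around the transcription starts of these genes were read for words of the E2F type, since E2F factors are the textbook regulators of S phase genes. The words searched were TTTCCCGC, TTTCGCGC, TTTGCCGC and TTTGGCGC and their reverse complements GCGGGAAA, GCGCGAAA, GCGGCAAA and GCGCCAAA, on both strands and with overlapping matches counted. RefSeq windows on GRCh38.p14, from 250 bases before to 50 bases after a start, were at hand for 38 of the 46 genes, with 49 windows in all, and for a gene with several windows the one with most words was printed. Such a word lay in the windows of 22 of the 38 genes (57.9%), against 5.397% of 15842 protein-coding genes and 3.99% of all 27305 genes with a window. Of the 40 other replication genes listed here, 8 of the 33 with a window held a word (24.2%), and of the 25 mitosis genes, 1 of the 21 with a window did (4.76%). The members held 31 words, of which 24 began between positions -100 and 50 from the start, with a median position of -53. For comparison, the CCAAT box on either strand lay in 21 of the 38 genes (55.3%) and in 42.1% of protein-coding genes. A match describes letters only and is neither a bound site nor a cause, and a window with none says nothing of the factor. In the sequences printed with the genes below, capitals mark the E2F-type words, and every sequence reads 5′ to 3′ on the strand of its gene.

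Of the licensing genes, OSI raised 5 of 5 against Control, DAC+OSI lowered 4 of 5 against OSI, and DAC+OSI lowered 2 of 5, ORC1 and ORC6, against Control. In that last comparison CDC6, CDT1 and the inhibitor GMNN were not called. ORC2 to ORC5, subunits of the origin recognition complex outside the list, were not called there either (adjusted p = 0.118 to 0.952). These differences between genes were not tested. ORC1 encodes the largest subunit of the origin recognition complex, an ATPase needed for loading the MCM ring. Its levels were 6.90, 6.91 and 6.44 CPM in DAC+OSI, 38.3, 39.5 and 37.2 CPM in OSI, 9.83, 11.01 and 10.3 CPM in DAC, and 13.4, 15.2 and 14.8 CPM in Control. No 2 groups overlapped, with OSI highest, then Control, DAC and DAC+OSI. ORC1 was 2.65-fold higher in OSI than in Control (log2 fold change 1.41, SE 0.11, adjusted p = 4.06e-06), 5.69-fold lower in DAC+OSI than in OSI (log2 fold change -2.51, SE 0.12, adjusted p = 5.05e-08) and 2.14-fold lower in DAC+OSI than in Control (log2 fold change -1.10, SE 0.11, adjusted p = 1.67e-05). ORC6 encodes the smallest subunit of that complex, which also takes part in loading the ring. ORC6 had 9.30, 7.10 and 8.05 CPM in DAC+OSI, 32.8, 29.1 and 25.9 CPM in OSI, 9.99, 12.4 and 9.22 CPM in DAC, and 15.8, 13.0 and 14.3 CPM in Control. OSI stood above all other libraries, and DAC+OSI stood below Control and overlapped DAC. Its calls were of the same kind (1.02, adjusted p = 0.000619 for OSI against Control, -1.84, adjusted p = 6.31e-06 for DAC+OSI against OSI, -0.81, adjusted p = 0.00208 for DAC+OSI against Control).

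CDC6 encodes the ATPase that joins the origin recognition complex in loading the ring. CDC6 had 21.4, 15.3 and 21.1 CPM in DAC+OSI, 35.3, 32.4 and 33.7 CPM in OSI, 19.5, 20.1 and 21.2 CPM in DAC, and 21.5, 15.9 and 23.5 CPM in Control. All OSI libraries were above every other library, and the other 3 groups overlapped. It rose with OSI (log2 fold change 0.73, SE 0.16, adjusted p = 0.00713) and fell in DAC+OSI against OSI (log2 fold change -0.80, SE 0.16, adjusted p = 0.00471), and DAC+OSI against Control gave -0.07, adjusted p = 0.792. CDT1 encodes the factor that brings the ring to the origin. CDT1 had 29.7, 51.1 and 30.0 CPM in DAC+OSI, 83.2, 80.4 and 65.8 CPM in OSI, 24.7, 26.7 and 22.2 CPM in DAC, and 26.5, 40.8 and 28.6 CPM in Control. The OSI libraries were again the highest, and DAC+OSI 2 and Control 2 were the highest of their groups, so DAC+OSI overlapped Control. CDT1 rose with OSI (log2 fold change 1.26, SE 0.22, adjusted p = 0.00158) and fell in DAC+OSI against OSI (log2 fold change -1.05, SE 0.22, adjusted p = 0.0057). GMNN encodes geminin, which binds CDT1 and blocks licensing after origins have fired. GMNN had 14.8, 31.6 and 15.5 CPM in DAC+OSI, 28.1, 26.9 and 23.6 CPM in OSI, 13.6, 13.6 and 14.6 CPM in DAC, and 12.4, 15.4 and 13.1 CPM in Control. DAC+OSI 2 was above the OSI libraries, while DAC+OSI 1 and 3 were near DAC and Control. GMNN rose with OSI (log2 fold change 0.94, SE 0.24, adjusted p = 0.0154), a call that was lost without OSI 1, OSI 2, Control 1 or Control 3 (adjusted p = 0.0596 to 0.0769), and in DAC+OSI against OSI it was not called (-0.35, adjusted p = 0.355), with a log2 fold change of -0.80 in the 10-library fit. The ORC1 window is shown because this gene changed in all of the comparisons although its window held none of the words. The CDC6 and CDT1 stretches of 40 bases are shown because each holds the word of its window close to the start, at positions 8 and -35.
ORC1 (chr1:52404374-52404673, minus strand): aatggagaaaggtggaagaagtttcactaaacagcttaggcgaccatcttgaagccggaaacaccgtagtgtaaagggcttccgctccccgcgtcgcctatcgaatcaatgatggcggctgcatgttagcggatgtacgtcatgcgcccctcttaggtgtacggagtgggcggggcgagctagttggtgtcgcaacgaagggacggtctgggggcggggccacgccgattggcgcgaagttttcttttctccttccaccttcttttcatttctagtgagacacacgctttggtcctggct
CDC6 (chr17:40287870-40287909, plus strand): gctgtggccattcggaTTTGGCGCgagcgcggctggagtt
CDT1 (chr16:88803738-88803777, plus strand): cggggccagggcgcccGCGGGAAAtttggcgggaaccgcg

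The helicase ring rose as a block with OSI, 6 of 6 against Control with a median log2 fold change of 1.14 and a range of 0.99 to 1.57, and 6 of 6 were lower in DAC+OSI than in OSI, with a median of -1.33 and a range of -1.52 to -1.04. Against Control, DAC+OSI lowered MCM4 and MCM6 and left MCM2, MCM3, MCM5 and MCM7 without a call. MCM2 to MCM7 are the subunits of the ring that unwinds DNA. MCM4 had 52.8, 48.3 and 44.3 CPM in DAC+OSI, 131, 125 and 129.6 CPM in OSI, 54.8, 55.2 and 50.5 CPM in DAC, and 59.0, 60.02 and 62.4 CPM in Control. OSI was far above the rest, and both DAC and DAC+OSI lay below every Control library. MCM4 rose with OSI (log2 fold change 1.09, SE 0.11, adjusted p = 1.94e-05), fell in DAC+OSI against OSI (log2 fold change -1.41, SE 0.11, adjusted p = 1.81e-06) and fell in DAC+OSI against Control (log2 fold change -0.32, SE 0.11, adjusted p = 0.0383), the last call being lost without any Control library, DAC+OSI 3 or DAC 1 (adjusted p = 0.05 to 0.115). MCM6 had 30.3, 21.0 and 29.7 CPM in DAC+OSI, 76.8, 75.7 and 77.4 CPM in OSI, 35.2, 38.8 and 37.8 CPM in DAC, and 38.0, 38.6 and 38.8 CPM in Control. Here DAC overlapped Control and DAC+OSI lay below both. MCM6 rose with OSI (log2 fold change 0.99, SE 0.14, adjusted p = 0.000268) and fell in DAC+OSI against OSI (log2 fold change -1.5, SE 0.14, adjusted p = 8.95e-06) and against Control (log2 fold change -0.51, SE 0.14, adjusted p = 0.0144).

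MCM3 had 32.4, 38.5 and 29.9 CPM in DAC+OSI, 102, 97.8 and 88.5 CPM in OSI, 34.5, 38.7 and 35.6 CPM in DAC, and 37.6, 44.5 and 39.5 CPM in Control. The OSI libraries stood far above the rest, and DAC+OSI, DAC and Control overlapped. The calls were 1.25, adjusted p = 2.77e-05 for OSI against Control and -1.52, adjusted p = 4.8e-06 for DAC+OSI against OSI. MCM7 had 85.5, 129.5 and 80.5 CPM in DAC+OSI, 242, 232 and 209 CPM in OSI, 87.9, 101 and 92.3 CPM in DAC, and 101, 137 and 96.5 CPM in Control. OSI was the highest group, and DAC+OSI 2 and Control 2 were close to each other and above their fellows. Its calls were 1.03, adjusted p = 0.00182 for OSI against Control and -1.21, adjusted p = 0.000658 for DAC+OSI against OSI. MCM2 had 42.2, 101 and 41.9 CPM in DAC+OSI, 119.9, 131 and 129 CPM in OSI, 34.3, 38.4 and 39.4 CPM in DAC, and 35.7, 54.3 and 37.9 CPM in Control. DAC+OSI 2 lay between the OSI libraries and the rest, so that the DAC+OSI mean of 61.6 ± 34.0 CPM (SD, n = 3) describes none of its libraries. MCM2 rose with OSI (log2 fold change 1.57, SE 0.29, adjusted p = 0.00223) and fell in DAC+OSI against OSI (log2 fold change -1.04, SE 0.29, adjusted p = 0.0256), which was lost without any OSI library, DAC+OSI 1 or DAC+OSI 3 (adjusted p = 0.0659 to 0.0935) and was -1.60, adjusted p = 5.36e-12 in the 10-library fit. MCM5 had 27.4, 85.7 and 26.7 CPM in DAC+OSI, 112, 111 and 106 CPM in OSI, 33.6, 36.5 and 34.1 CPM in DAC, and 40.9, 63.0 and 39.7 CPM in Control. As with MCM2, DAC+OSI 2 was far above DAC+OSI 1 and 3, which were the lowest libraries of all. MCM5 rose with OSI (log2 fold change 1.20, SE 0.36, adjusted p = 0.0354), a call lost without any OSI or DAC library, Control 1 or Control 3 (adjusted p = 0.0602 to 0.142). It fell in DAC+OSI against OSI (log2 fold change -1.24, SE 0.36, adjusted p = 0.033), lost without any OSI or DAC library, DAC+OSI 1 or DAC+OSI 3 (adjusted p = 0.0542 to 0.107), and reached -2.03, adjusted p = 5.49e-14 in the 10-library fit and -2.05, adjusted p = 3.6e-07 without DAC+OSI 2 alone. The 2 windows of 300 bases are shown because each holds 2 words, and the MCM2 and MCM6 stretches because words on opposite strands overlap there in 1 run of capitals.
MCM3 (chr6:52284693-52284992, minus strand): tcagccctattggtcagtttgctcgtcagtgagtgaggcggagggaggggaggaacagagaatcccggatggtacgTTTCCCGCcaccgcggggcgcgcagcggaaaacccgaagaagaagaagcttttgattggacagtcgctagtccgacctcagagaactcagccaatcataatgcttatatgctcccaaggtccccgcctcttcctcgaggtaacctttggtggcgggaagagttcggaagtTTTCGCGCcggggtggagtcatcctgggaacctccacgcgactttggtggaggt
MCM7 (chr7:100101348-100101647, minus strand): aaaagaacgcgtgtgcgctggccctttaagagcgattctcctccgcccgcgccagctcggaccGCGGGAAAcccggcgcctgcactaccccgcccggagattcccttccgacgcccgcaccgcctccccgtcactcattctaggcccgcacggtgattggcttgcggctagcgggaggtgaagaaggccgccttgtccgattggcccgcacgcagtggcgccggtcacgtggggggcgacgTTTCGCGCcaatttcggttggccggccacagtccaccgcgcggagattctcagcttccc
MCM2 (chr3:127598397-127598436, plus strand): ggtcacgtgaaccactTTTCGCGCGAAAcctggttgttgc
MCM6 (chr2:135876506-135876545, minus strand): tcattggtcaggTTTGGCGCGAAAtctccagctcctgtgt

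Of the firing factors, OSI raised 6 of 9 against Control, DAC+OSI lowered 9 of 9 against OSI, and DAC+OSI lowered 6 of 9 against Control, namely MCM10, CDC45, GINS3, GINS4, CDC7 and DBF4. MCM10 encodes a factor that binds the assembled helicase and is needed for it to start unwinding. MCM10 had 5.22, 3.21 and 4.13 CPM in DAC+OSI, 23.8, 26.9 and 24.2 CPM in OSI, 8.76, 9.42 and 7.37 CPM in DAC, and 13.3, 12.5 and 12.1 CPM in Control. The groups were fully separate, in the order OSI, Control, DAC and DAC+OSI. MCM10 had the strongest fall of the 46 in DAC+OSI against OSI, 5.89-fold (log2 fold change -2.56, SE 0.17, adjusted p = 7.51e-07), and against Control (log2 fold change -1.57, SE 0.17, adjusted p = 2.24e-05), after a rise with OSI (log2 fold change 0.98, SE 0.16, adjusted p = 0.00105). CDC45 encodes the helicase cofactor whose addition, with GINS, makes the ring active. CDC45 had 4.95, 6.52 and 3.79 CPM in DAC+OSI, 28.5, 29.5 and 25.7 CPM in OSI, 6.57, 7.20 and 6.42 CPM in DAC, and 10.8, 11.4 and 10.7 CPM in Control. OSI was above Control and Control above both DAC and DAC+OSI, which overlapped. Its changes were log2 fold change 1.35, SE 0.17, adjusted p = 0.000128 in OSI against Control, log2 fold change -2.48, SE 0.18, adjusted p = 1.09e-06 in DAC+OSI against OSI, and log2 fold change -1.13, SE 0.17, adjusted p = 0.000344 in DAC+OSI against Control.

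GINS1, GINS2, GINS3 and GINS4 encode the subunits of the GINS complex. GINS2 had 2.40, 1.65 and 2.06 CPM in DAC+OSI, 8.58, 8.58 and 8.14 CPM in OSI, 2.45, 3.25 and 2.45 CPM in DAC, and 3.06, 3.34 and 2.36 CPM in Control. OSI was the only group that stood clear of Control, and it stood nearly 3 times as high. GINS2 rose with OSI (log2 fold change 1.53, SE 0.19, adjusted p = 0.000128) and fell in DAC+OSI against OSI (log2 fold change -2.03, SE 0.20, adjusted p = 1.3e-05), while DAC+OSI against Control gave -0.50, adjusted p = 0.0734. GINS1 had 10.6, 5.11 and 10.3 CPM in DAC+OSI, 24.6, 24.9 and 24.3 CPM in OSI, 11.9, 10.4 and 8.29 CPM in DAC, and 13.6, 10.7 and 15.02 CPM in Control. DAC+OSI 2 was far below its fellows, and all DAC+OSI libraries were below Control. GINS1 rose with OSI (log2 fold change 0.91, SE 0.24, adjusted p = 0.0166), lost without Control 2 (adjusted p = 0.0529), and fell in DAC+OSI against OSI (log2 fold change -1.49, SE 0.24, adjusted p = 0.000906). GINS4 had 5.502, 4.82 and 4.87 CPM in DAC+OSI, 13.6, 13.3 and 13.0 CPM in OSI, 6.92, 7.20 and 6.89 CPM in DAC, and 10.01, 7.27 and 8.72 CPM in Control. The groups were separate, with DAC+OSI lowest. It rose with OSI (0.62, adjusted p = 0.00738) and fell in DAC+OSI against OSI (-1.39, adjusted p = 2.13e-05) and against Control (-0.77, adjusted p = 0.00129). GINS3 averaged 7.44 ± 2.23 CPM in DAC+OSI, 20.9 ± 2.70 CPM in OSI, 10.7 ± 0.640 CPM in DAC and 15.1 ± 0.789 CPM in Control (SD, n = 3 each). OSI against Control was not called for GINS3 (0.48, adjusted p = 0.106), though its OSI libraries were all above Control, and it fell in DAC+OSI against OSI (-1.47, adjusted p = 0.000201) and against Control (-1.0, adjusted p = 0.00197).

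CDC7 and DBF4 encode the catalytic and the regulatory subunit of the kinase that phosphorylates the ring to start firing, and neither was called in OSI against Control. CDC7 averaged 5.25 ± 1.38 CPM in DAC+OSI, 17.6 ± 1.23 CPM in OSI, 10.97 ± 1.58 CPM in DAC and 13.2 ± 4.91 CPM in Control (SD, n = 3 each). DAC+OSI was below every other library, with log2 fold change -1.72, SE 0.27, adjusted p = 0.00064 against OSI and log2 fold change -1.31, SE 0.26, adjusted p = 0.00245 against Control, and OSI against Control gave 0.41, adjusted p = 0.304. DBF4 averaged 11.8 ± 4.54 CPM in DAC+OSI, 23.9 ± 0.285 CPM in OSI, 21.1 ± 3.01 CPM in DAC and 24.1 ± 9.01 CPM in Control (SD, n = 3 each). Its OSI and Control means were alike (-0.01, adjusted p = 0.984), and Control 2 was at 13.9 CPM against 31.1 and 27.3 CPM in Control 1 and 3. DBF4 fell in DAC+OSI against OSI (-1.0, adjusted p = 0.0378), lost without any OSI library (adjusted p = 0.0779 to 0.0839), and against Control (-1.02, adjusted p = 0.0237), lost without Control 1 or Control 3 (adjusted p = 0.0638 to 0.0857). In the 10-library fit DBF4 was called lower in OSI than in Control (-0.28, adjusted p = 0.0318), the only member called lower in that comparison and fit. TOPBP1 encodes a scaffold that helps to assemble the helicase and activates the checkpoint kinase ATR. TOPBP1 had 76.9, 44.7 and 76.5 CPM in DAC+OSI, 104, 102 and 99.3 CPM in OSI, 71.9, 70.9 and 74.5 CPM in DAC, and 70.6, 57.3 and 70.8 CPM in Control. OSI was the highest group, and DAC+OSI 1 and 3 lay above all Control libraries while DAC+OSI 2 lay below them. It rose with OSI (0.62, adjusted p = 0.0289), lost without any OSI or Control library (adjusted p = 0.0571 to 0.0834), and fell in DAC+OSI against OSI (-0.62, adjusted p = 0.0314), lost without any OSI library (adjusted p = 0.0604 to 0.0725). The stretches below are shown because in each the word lies within 31 bases of the start, at position 6 for GINS1, -31 for GINS2, -5 for GINS3 and -7 for TOPBP1.
GINS1 (chr20:25407662-25407701, plus strand): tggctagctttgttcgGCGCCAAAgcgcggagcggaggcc
GINS2 (chr16:85688962-85689001, minus strand): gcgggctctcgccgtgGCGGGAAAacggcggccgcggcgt
GINS3 (chr16:58392450-58392489, plus strand): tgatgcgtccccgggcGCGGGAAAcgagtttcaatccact
TOPBP1 (chr3:133661925-133661964, minus strand): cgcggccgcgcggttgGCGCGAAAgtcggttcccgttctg

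The polymerase genes rose with OSI in 6 of 7, with PRIM1 not called, and all 7 fell in DAC+OSI against OSI. Against Control, DAC+OSI lowered PRIM1, POLD3 and POLE2 and left 4 without a call. POLA1 and POLA2 encode the catalytic subunit and the B subunit of DNA polymerase alpha, which with primase starts each new strand. POLA1 had 13.95, 8.42 and 14.8 CPM in DAC+OSI, 22.4, 22.4 and 23.8 CPM in OSI, 14.5, 15.2 and 15.4 CPM in DAC, and 13.95, 11.3 and 13.1 CPM in Control. OSI stood above the rest, and DAC lay just above Control. POLA1 rose with OSI (0.84, adjusted p = 0.00561) and fell in DAC+OSI against OSI (-0.87, adjusted p = 0.00508). POLA2 had 2.56, 2.38 and 2.31 CPM in DAC+OSI, 6.03, 5.61 and 5.15 CPM in OSI, 2.10, 2.69 and 2.37 CPM in DAC, and 3.16, 2.82 and 2.20 CPM in Control. Only OSI stood apart, at levels of a few CPM throughout. Its calls were 1.03, adjusted p = 0.0012 for OSI against Control and -1.21, adjusted p = 0.000459 for DAC+OSI against OSI. PRIM1 encodes the catalytic subunit of primase, which lays down the RNA primers. PRIM1 had 2.18, 1.36 and 1.23 CPM in DAC+OSI, 7.57, 6.65 and 5.34 CPM in OSI, 3.09, 4.28 and 3.29 CPM in DAC, and 6.50, 2.86 and 4.75 CPM in Control. OSI overlapped Control, where Control 2 was low, and DAC+OSI was below all other libraries. PRIM1 had the strongest fall of the polymerase genes in DAC+OSI against OSI (log2 fold change -2.02, SE 0.31, adjusted p = 0.000608) and against Control (log2 fold change -1.55, SE 0.31, adjusted p = 0.0022), while OSI against Control gave 0.46, adjusted p = 0.306.

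POLD1 and POLD3 encode the catalytic subunit and an accessory subunit of polymerase delta, the main polymerase of the lagging strand. POLD1 had 23.1, 47.0 and 19.8 CPM in DAC+OSI, 65.8, 65.7 and 57.6 CPM in OSI, 24.4, 25.3 and 23.2 CPM in DAC, and 26.1, 40.3 and 30.2 CPM in Control. The OSI libraries were highest, and DAC+OSI 2 and Control 2, at 65% transcript GC, were well above their fellows. POLD1 rose with OSI (0.97, adjusted p = 0.0223), lost without any OSI library, Control 1 or Control 3 (adjusted p = 0.0512 to 0.114), and fell in DAC+OSI against OSI (-1.08, adjusted p = 0.0147), lost without DAC+OSI 1, DAC+OSI 3, OSI 1 or OSI 2 (adjusted p = 0.0548 to 0.0561). POLD3 had 18.1, 12.2 and 17.7 CPM in DAC+OSI, 32.6, 32.0 and 36.9 CPM in OSI, 20.3, 21.3 and 19.1 CPM in DAC, and 25.3, 21.5 and 25.96 CPM in Control. All 4 groups were separate, in the order OSI, Control, DAC and DAC+OSI, with DAC 2 and Control 2 close to each other. POLD3 rose with OSI (0.48, adjusted p = 0.0453), lost without any OSI, DAC or Control library (adjusted p = 0.0628 to 0.154), and fell in DAC+OSI against OSI (-1.07, adjusted p = 0.000405) and against Control (-0.59, adjusted p = 0.012). POLE and POLE2 encode the catalytic subunit and the B subunit of polymerase epsilon, the main polymerase of the leading strand. POLE had 42.2, 64.4 and 38.4 CPM in DAC+OSI, 96.5, 119 and 108 CPM in OSI, 44.3, 46.2 and 40.2 CPM in DAC, and 56.8, 81.2 and 55.1 CPM in Control. OSI was highest, DAC was below Control, and DAC+OSI 2 reached into Control. POLE rose with OSI (0.75, adjusted p = 0.02), lost without OSI 2, OSI 3, Control 1 or Control 3 (adjusted p = 0.0676 to 0.113), and fell in DAC+OSI against OSI (-1.16, adjusted p = 0.00156). With the library number as a block, POLE was also called lower in DAC+OSI than in Control (log2 fold change -0.43, adjusted p = 0.0349).

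POLE2 had 2.41, 2.24 and 2.13 CPM in DAC+OSI, 8.77, 8.45 and 8.31 CPM in OSI, 3.37, 3.73 and 2.94 CPM in DAC, and 3.65, 2.34 and 4.24 CPM in Control. OSI was the only group above 5 CPM, and Control 2 lay within the DAC+OSI range. POLE2 rose with OSI (log2 fold change 1.32, SE 0.20, adjusted p = 0.000518) and fell in DAC+OSI against OSI (log2 fold change -1.91, SE 0.21, adjusted p = 3.21e-05). It was called lower in DAC+OSI than in Control (-0.59, adjusted p = 0.0461), a call lost without any OSI library, DAC+OSI 1, DAC+OSI 3, DAC 1, Control 1 or Control 3 (adjusted p = 0.0506 to 0.154) and, with the library number as a block, at an adjusted p of 0.0546. With the GC correction it was -0.49, adjusted p = 0.0528, and with block and correction together the adjusted p was 0.065. The stretches of POLA2, POLE and POLE2 are shown because these are the polymerase genes whose windows hold a word close to the start, at positions -53, -18 and -5.
POLA2 (chr11:65261893-65261932, plus strand): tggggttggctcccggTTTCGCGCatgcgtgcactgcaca
POLE (chr12:132687337-132687376, minus strand): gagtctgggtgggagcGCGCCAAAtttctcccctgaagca
POLE2 (chr14:49688196-49688235, minus strand): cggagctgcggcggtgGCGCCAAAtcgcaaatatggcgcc

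PCNA encodes the sliding clamp that holds polymerases on DNA. Of the clamp and its loader, OSI raised 3 of 5, DAC+OSI lowered 5 of 5 against OSI, and DAC+OSI lowered RFC3, RFC4 and RFC5 against Control. PCNA had 84.3, 144 and 70.3 CPM in DAC+OSI, 307, 272 and 247 CPM in OSI, 98.5, 108 and 96.3 CPM in DAC, and 102, 135 and 112 CPM in Control. OSI was above all others, and DAC+OSI 2 and Control 2 were the highest of their groups. It rose with OSI (log2 fold change 1.25, SE 0.22, adjusted p = 0.00168) and fell in DAC+OSI against OSI (log2 fold change -1.47, SE 0.22, adjusted p = 0.000572). RFC2 to RFC5 encode the small subunits of replication factor C, which opens the clamp and loads it. RFC2 had 18.7, 16.6 and 16.5 CPM in DAC+OSI, 46.9, 45.2 and 36.7 CPM in OSI, 19.4, 21.0 and 18.2 CPM in DAC, and 19.9, 25.3 and 21.8 CPM in Control. DAC+OSI was below Control in every library and overlapped DAC. RFC2 rose with OSI (log2 fold change 0.94, SE 0.14, adjusted p = 0.000425) and fell in DAC+OSI against OSI (log2 fold change -1.31, SE 0.14, adjusted p = 2.92e-05), and DAC+OSI against Control gave -0.37, adjusted p = 0.0627. RFC4 had 17.2, 9.78 and 18.03 CPM in DAC+OSI, 42.6, 38.2 and 37.8 CPM in OSI, 18.8, 20.1 and 17.4 CPM in DAC, and 22.8, 22.3 and 22.5 CPM in Control. Control was tight between its libraries, OSI lay above it, and DAC and DAC+OSI lay below it. RFC4 rose with OSI (0.81, adjusted p = 0.00832), fell in DAC+OSI against OSI (-1.39, adjusted p = 0.000243) and fell against Control (-0.58, adjusted p = 0.035), the last being lost without any Control library (adjusted p = 0.0523 to 0.0647).

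RFC3 had 8.36, 4.72 and 7.71 CPM in DAC+OSI, 27.2, 24.7 and 19.9 CPM in OSI, 12.6, 12.5 and 12.3 CPM in DAC, and 18.4, 10.9 and 15.8 CPM in Control. The OSI libraries were above Control and DAC+OSI was the lowest group without overlap, while Control 2 was below every DAC library. OSI against Control missed the threshold (0.67, adjusted p = 0.0511), and RFC3 fell in DAC+OSI against OSI (log2 fold change -1.77, SE 0.23, adjusted p = 0.000159) and against Control (log2 fold change -1.10, SE 0.23, adjusted p = 0.00277). RFC5 averaged 12.4 ± 2.34 CPM in DAC+OSI, 37.5 ± 2.45 CPM in OSI, 18.4 ± 2.23 CPM in DAC and 28.4 ± 1.64 CPM in Control (SD, n = 3 each), and none of the groups overlapped. OSI against Control was not called for RFC5 (0.40, adjusted p = 0.0817), and it fell in DAC+OSI against OSI (log2 fold change -1.59, SE 0.15, adjusted p = 1.29e-05) and against Control (log2 fold change -1.19, SE 0.15, adjusted p = 8.47e-05). The PCNA window, with its word at position -59, is shown because PCNA was the most abundant of the 46 transcripts per kilobase in every group, and the RFC3 stretch because RFC3 is the loader subunit whose window holds a word.
PCNA (chr20:5126573-5126872, minus strand): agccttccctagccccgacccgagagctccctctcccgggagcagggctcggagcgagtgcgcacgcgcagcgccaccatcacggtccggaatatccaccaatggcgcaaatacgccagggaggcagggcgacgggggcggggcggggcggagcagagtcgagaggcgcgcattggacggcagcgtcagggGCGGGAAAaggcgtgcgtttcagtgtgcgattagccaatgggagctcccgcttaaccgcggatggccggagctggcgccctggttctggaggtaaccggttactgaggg
RFC3 (chr13:33818078-33818117, plus strand): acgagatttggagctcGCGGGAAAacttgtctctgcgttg

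The genes for joining and covering the new strands were raised by OSI in 3 of 4 and lowered in DAC+OSI against OSI in 4 of 4, and none was called in DAC+OSI against Control. FEN1 encodes the nuclease that trims the flaps of Okazaki fragments. FEN1 had 23.2, 30.8 and 21.8 CPM in DAC+OSI, 51.4, 47.4 and 41.3 CPM in OSI, 20.6, 22.1 and 22.6 CPM in DAC, and 20.5, 21.0 and 21.3 CPM in Control. OSI was highest, and DAC+OSI lay above Control in every library, the only one of the 46 genes of which that holds, at a log2 fold change of 0.27, adjusted p = 0.189. FEN1 rose with OSI (log2 fold change 1.16, SE 0.14, adjusted p = 0.000131) and fell in DAC+OSI against OSI (log2 fold change -0.89, SE 0.14, adjusted p = 0.00094). LIG1 encodes the ligase that seals those fragments. LIG1 had 19.8, 23.98 and 18.7 CPM in DAC+OSI, 59.2, 63.9 and 58.0 CPM in OSI, 20.6, 22.9 and 20.9 CPM in DAC, and 23.2, 26.9 and 23.3 CPM in Control. The OSI libraries stood far above every other library, and the remaining groups were close. LIG1 rose with OSI (log2 fold change 1.30, SE 0.13, adjusted p = 1.97e-05) and fell in DAC+OSI against OSI (log2 fold change -1.54, SE 0.13, adjusted p = 4.19e-06), and DAC+OSI against Control was -0.24, adjusted p = 0.193. DNA2, a nuclease and helicase for long flaps, averaged 11.4 ± 3.75 CPM in DAC+OSI, 21.3 ± 0.798 CPM in OSI, 13.5 ± 0.246 CPM in DAC and 13.2 ± 3.10 CPM in Control (SD, n = 3 each). Its OSI libraries were above Control, which missed the threshold (0.68, adjusted p = 0.0516), and it fell in DAC+OSI against OSI (-0.89, adjusted p = 0.0169). RPA2 encodes a subunit of RPA, which covers single-stranded DNA at the fork. RPA2 had 19.9, 15.5 and 20.3 CPM in DAC+OSI, 32.0, 30.7 and 30.7 CPM in OSI, 23.5, 25.2 and 21.1 CPM in DAC, and 24.8, 21.0 and 24.2 CPM in Control. OSI was highest and DAC+OSI was lowest, below Control and DAC in every library. RPA2 rose with OSI (0.41, adjusted p = 0.0479), lost without any OSI, DAC or Control library, DAC+OSI 1 or DAC+OSI 3 (adjusted p = 0.0531 to 0.121), and fell in DAC+OSI against OSI (-0.74, adjusted p = 0.00222). The LIG1 stretch is shown because LIG1 is the gene of this group whose window holds a word, at position -114.
LIG1 (chr19:48170435-48170474, minus strand): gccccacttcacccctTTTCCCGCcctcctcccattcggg

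Of the fork protection genes, OSI raised 3 of 4 and DAC+OSI lowered 3 of 4 against OSI and 3 of 4 against Control. CLSPN encodes claspin, the adaptor through which ATR activates the checkpoint kinase CHK1 at stalled forks. CLSPN had 5.08, 3.84 and 5.29 CPM in DAC+OSI, 16.5, 18.2 and 18.2 CPM in OSI, 5.98, 7.01 and 5.60 CPM in DAC, and 6.59, 7.65 and 9.16 CPM in Control. OSI was clearly highest and DAC+OSI lowest without overlap, and DAC reached into Control. CLSPN rose with OSI (log2 fold change 1.18, SE 0.17, adjusted p = 0.000316) and fell in DAC+OSI against OSI (log2 fold change -1.88, SE 0.17, adjusted p = 7.55e-06) and against Control (log2 fold change -0.70, SE 0.17, adjusted p = 0.00726). TIMELESS and TIPIN encode the partners of the fork protection complex. TIMELESS had 26.9, 24.8 and 23.4 CPM in DAC+OSI, 58.1, 59.2 and 59.1 CPM in OSI, 23.1, 26.9 and 25.7 CPM in DAC, and 34.3, 31.4 and 35.8 CPM in Control. DAC and DAC+OSI overlapped, and both were below Control, which was below OSI. TIMELESS rose with OSI (log2 fold change 0.80, SE 0.11, adjusted p = 0.000333) and fell in DAC+OSI against OSI (log2 fold change -1.23, SE 0.11, adjusted p = 9.1e-06) and against Control (log2 fold change -0.43, SE 0.11, adjusted p = 0.0119). TIPIN had 3.16, 3.65 and 3.69 CPM in DAC+OSI, 5.52, 4.70 and 4.15 CPM in OSI, 3.88, 4.45 and 3.35 CPM in DAC, and 5.54, 5.49 and 4.75 CPM in Control. OSI overlapped Control, and DAC+OSI was below both. TIPIN was not called in OSI against Control (-0.14, adjusted p = 0.633) or in DAC+OSI against OSI (-0.45, adjusted p = 0.0883), and it fell in DAC+OSI against Control (-0.59, adjusted p = 0.0196), lost without DAC+OSI 1 or Control 1 (adjusted p = 0.0579 to 0.0642) and with the GC correction (-0.47, adjusted p = 0.0958, or 0.0575 with the library number as a block as well). Partners of 1 complex thus had log2 fold changes of 0.80 and -0.14 in OSI against Control, a difference between genes that was not tested. WDHD1 encodes the factor that ties polymerase alpha to the helicase. WDHD1 had 16.8, 9.53 and 14.7 CPM in DAC+OSI, 31.4, 31.3 and 29.6 CPM in OSI, 17.0, 18.5 and 17.98 CPM in DAC, and 18.6, 14.5 and 19.9 CPM in Control. OSI was highest, and DAC+OSI 2 and Control 2 were the lowest of their groups. WDHD1 rose with OSI (0.80, adjusted p = 0.00879) and fell in DAC+OSI against OSI (-1.16, adjusted p = 0.000907), and DAC+OSI against Control gave -0.36, adjusted p = 0.173. The CLSPN stretch, with its word at position -5, is shown as that of the gene with the largest changes of the group.
CLSPN (chr1:35769960-35769999, minus strand): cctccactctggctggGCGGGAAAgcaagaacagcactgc

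The chromatin and S phase partners held both the largest rise and some of the smallest changes. OSI raised 5 of 6, DAC+OSI lowered 5 of 6 against OSI, and against Control DAC+OSI lowered CHAF1B. FAM111B, which encodes a serine protease, had 7.74, 4.04 and 7.12 CPM in DAC+OSI, 32.2, 29.1 and 31.0 CPM in OSI, 8.98, 9.66 and 8.91 CPM in DAC, and 7.42, 5.73 and 7.83 CPM in Control. The OSI libraries were at least 3 times as high as any other, DAC was above Control, and DAC+OSI overlapped Control. Its rise with OSI was 4.39-fold, the largest of the 46 (log2 fold change 2.14, SE 0.21, adjusted p = 1.73e-05), and it fell in DAC+OSI against OSI (log2 fold change -2.27, SE 0.21, adjusted p = 8.62e-06). ATAD2, an ATPase with a bromodomain found on replicating chromatin, had 44.0, 25.3 and 40.7 CPM in DAC+OSI, 116, 123 and 129.8 CPM in OSI, 46.7, 53.4 and 49.2 CPM in DAC, and 58.4, 41.5 and 58.0 CPM in Control. OSI stood far above the rest, and DAC+OSI 2 and Control 2 were the lowest of their groups. ATAD2 rose with OSI (log2 fold change 1.22, SE 0.19, adjusted p = 0.000701) and fell in DAC+OSI against OSI (log2 fold change -1.74, SE 0.20, adjusted p = 4.78e-05). It was not called in DAC+OSI against Control (-0.52, adjusted p = 0.0607), and with the library number as a block it was (-0.52, adjusted p = 0.0401). CHAF1A and CHAF1B encode subunits of the chaperone that places histones H3 and H4 behind the fork. CHAF1A had 14.2, 23.3 and 15.5 CPM in DAC+OSI, 41.1, 41.1 and 40.5 CPM in OSI, 14.6, 17.1 and 15.9 CPM in DAC, and 19.4, 23.8 and 21.9 CPM in Control. OSI was highest and tight, DAC was below Control, and DAC+OSI 2 reached into Control. CHAF1A rose with OSI (0.92, adjusted p = 0.00225) and fell in DAC+OSI against OSI (-1.22, adjusted p = 0.000327). CHAF1B had 5.91, 4.23 and 5.49 CPM in DAC+OSI, 17.5, 17.9 and 18.1 CPM in OSI, 7.66, 8.21 and 7.30 CPM in DAC, and 10.6, 10.02 and 11.1 CPM in Control. All 4 groups were separate, in the order OSI, Control, DAC and DAC+OSI. CHAF1B rose with OSI (0.75, adjusted p = 0.00185) and fell in DAC+OSI against OSI (-1.76, adjusted p = 2.83e-06) and against Control (-1.01, adjusted p = 0.000165).

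UHRF1, which recruits the maintenance DNA methyltransferase to newly copied DNA, averaged 15.5 ± 10.2 CPM in DAC+OSI, 40.3 ± 2.40 CPM in OSI, 18.2 ± 1.01 CPM in DAC and 28.8 ± 7.13 CPM in Control (SD, n = 3 each). DAC+OSI 2, at 27.2 CPM, was far above DAC+OSI 1 and 3, at 10.8 and 8.47 CPM. UHRF1 was not called in OSI against Control (0.48, adjusted p = 0.36), fell in DAC+OSI against OSI (-1.40, adjusted p = 0.0128), which was -2.08, adjusted p = 1.43e-11 in the 10-library fit and -2.10, adjusted p = 5.4e-07 without DAC+OSI 2 alone, and in DAC+OSI against Control gave -0.92, adjusted p = 0.0583, or -1.0 with an adjusted p of 0.0123 with the library number as a block. SLBP binds the stem-loop of histone messenger RNA, which is made in S phase. SLBP had 32.5, 20.3 and 34.4 CPM in DAC+OSI, 41.1, 35.7 and 36.2 CPM in OSI, 25.1, 26.5 and 28.3 CPM in DAC, and 21.3, 17.3 and 23.9 CPM in Control. OSI was highest, DAC was above Control, and DAC+OSI 1 and 3 were above DAC while DAC+OSI 2 was within Control. SLBP rose with OSI (log2 fold change 0.86, SE 0.19, adjusted p = 0.00614) and was not called in DAC+OSI against OSI (-0.37, adjusted p = 0.203). In DAC+OSI against Control it gave 0.49, adjusted p = 0.0688, or 0.47 with an adjusted p of 0.0385 with the library number as a block, the only member called higher in that comparison and fit.

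**Figure D3:**
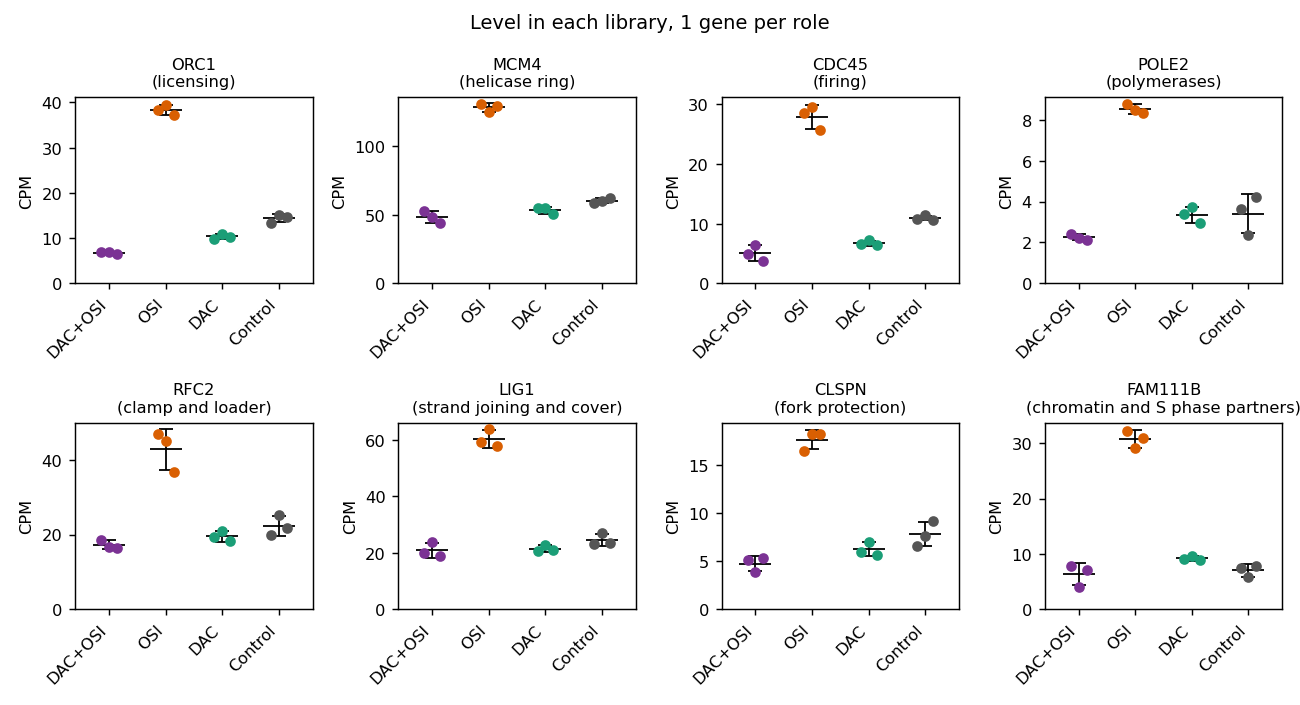
CPM of 1 gene per role in every library (points), with the mean and SD of each group of 3 libraries (bars), for DAC+OSI, OSI, DAC and Control. In all 8 panels the 3 OSI points lie above every other point, and ORC1 in DAC+OSI (6.44 to 6.91 CPM) lies below DAC (9.83 to 11.01 CPM) and Control (13.4 to 15.2 CPM).

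Over the whole list, OSI against Control gave a median log2 fold change of 0.93, against -0.01 over all genes tested, and 42 of the 46 genes were higher in every OSI library than in any Control library, which held for 21.5% of all genes. The 9 genes without a call were GINS3, CDC7, DBF4, PRIM1, RFC3, RFC5, DNA2, TIPIN and UHRF1. None was higher in Control in every library, against 18.7% of all genes. In the 10-library fit, 42 were called higher and 1 lower, where 21.5% and 20.8% of all genes were called. Leaving out single libraries gave 30 to 42 genes called higher, and the shares of all genes in those fits are not given here. Without a filter on low counts the calls of POLD3 and RPA2 were lost (adjusted p = 0.0803 and 0.167).

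DAC+OSI against OSI gave a median log2 fold change of -1.39, against 0.04 over all genes, and 45 of the 46 genes were lower in every DAC+OSI library, against 16.3% of all genes. The exception was GMNN, through DAC+OSI 2. GMNN, TIPIN and SLBP were the genes without a call. In the 10-library fit 45 were called lower, where 19.8% of all genes were. Leaving out single libraries gave 38 to 45, and the shares of all genes in those fits are not given here. In a fit of these groups alone, the calls of MCM2, MCM5, DBF4, TOPBP1, POLD1, DNA2 and UHRF1 were lost (adjusted p = 0.0596 to 0.137).

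DAC+OSI against Control gave a median of -0.43, against 0.03 over all genes. In 21 genes every DAC+OSI library was below every Control library, against 18% of all genes, and in 1, FEN1, every one was above, against 18.7%. Of the 37 genes that rose with OSI, 13 were lower in DAC+OSI than in both OSI and Control, 22 were lower than in OSI without a call against Control, and GMNN and SLBP were called in neither. With the library number as a block, 22 genes were called lower and 1 higher, where 14.1% and 16.3% of all genes were called. The 10-library fit called 33 lower and 1 higher, where 20.2% and 20.8% of all genes were called. The fit of these 2 groups alone called 11 lower, where 7.04% of all genes were. Leaving out single libraries gave 16 to 30 lower, and the shares of all genes in those fits are not given here. The fit of the 2 groups alone lost the calls of MCM4, MCM6, DBF4, POLD3, POLE2, RFC4, TIMELESS, TIPIN and CLSPN (adjusted p = 0.0558 to 0.158). Without a filter on low counts, those of MCM4, POLE2, TIMELESS and TIPIN were lost (adjusted p = 0.0527 to 0.172), and with the GC correction those of POLE2 and TIPIN.

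DAC against Control called 5 of the 46 genes lower in the fit of all libraries, where 4.11% of all genes were called lower. The 5 called lower against Control were ORC1, MCM10, CDC45, RFC5 and TIMELESS, whose levels in every library are given above except for RFC5, which had 20.1, 19.2 and 15.9 CPM in DAC and 30.01, 26.7 and 28.3 CPM in Control. In all 5, every DAC library was below every Control library. The log2 fold changes were -0.48, adjusted p = 0.0192 for ORC1, -0.57, adjusted p = 0.0479 for MCM10, -0.70, adjusted p = 0.0208 for CDC45, -0.63, adjusted p = 0.021 for RFC5 and -0.42, adjusted p = 0.0341 for TIMELESS. ORC1 lost its call without DAC 1, DAC 3, Control 2 or Control 3 (adjusted p = 0.0519 to 0.0887). MCM10 lost its call without any OSI, DAC or Control library (adjusted p = 0.057 to 0.183). CDC45 lost its call without DAC 1, DAC 3 or Control 2 (adjusted p = 0.0576 to 0.099), and RFC5 without DAC 3 or Control 1 (adjusted p = 0.0523 to 0.0936). TIMELESS lost its call without any DAC library, Control 1 or Control 3 (adjusted p = 0.0546 to 0.13). Without a filter on low counts, the calls of ORC1 and TIMELESS were lost (adjusted p = 0.0936 and 0.126). The median over the 46 was -0.26, against 0.01 over all genes. Every DAC library was below every Control library in 19 genes, against 19% of all genes, and above in 4 (TOPBP1, POLA1, SLBP and FAM111B), against 20.2%. The count of genes called lower was 21 in the 10-library fit, where 12.8% of all genes were called lower, 12 with the GC correction, where 8.01% were, and 10 in a fit of these 2 groups alone, where 8.05% were. It was 15 without DAC+OSI 2, where 11.7% of all genes were called lower. It was 2 without Control 1, 2 or 3, where 2.83%, 2.1% and 2.69% were, and 1, 3 and 0 without DAC 1, 2 and 3, where 1.76%, 2.17% and 1.3% were.

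Against DAC alone, the combination lowered ORC1, MCM6, MCM10, CDC7, PRIM1, RFC3, RFC5 and CHAF1B, 8 of 46, and raised 0, where 4.52% of all genes were called lower and 6.1% higher. MCM10 (log2 fold change -1.01, SE 0.17, adjusted p = 0.00248) and ORC1 (log2 fold change -0.62, SE 0.11, adjusted p = 0.00428) had the smallest p-values. CDC7 (-1.05, adjusted p = 0.0231) lost its call without DAC 2 or DAC 3 (adjusted p = 0.0536 to 0.0956), PRIM1 (-1.14, adjusted p = 0.0315) without any DAC library or DAC+OSI 3 (adjusted p = 0.0592 to 0.125), and RFC3 (-0.83, adjusted p = 0.0334) without any DAC library (adjusted p = 0.0786 to 0.0932). RFC5 (-0.56, adjusted p = 0.0311) lost its call without DAC+OSI 3, DAC 1 or DAC 2 (adjusted p = 0.0645 to 0.128), CHAF1B (-0.55, adjusted p = 0.0233) without DAC 1 or DAC 2 (adjusted p = 0.0711 to 0.101), and MCM6 (-0.46, adjusted p = 0.0482) without any OSI, DAC or Control library (adjusted p = 0.0505 to 0.163). In a fit of these groups alone, 6 of the 8 calls were lost, those of MCM10 and CDC7 being left (adjusted p = 0.0583 to 0.188 for the 6), and without a filter on low counts those of MCM6 and CHAF1B were lost (adjusted p = 0.0883 and 0.0716). Every DAC+OSI library was below every DAC library in 19 genes, against 17.7% of all genes, and above in 3 (CDT1, GMNN and MCM2), against 17%. The median was -0.26, against 0.01 over all genes. The count of genes called lower was 17 in the 10-library fit, where 11.2% of all genes were, 2 in a fit of the 2 groups alone, where 1.8% were, and 3, 2 and 4 without DAC 1, 2 and 3, where 2.37%, 2.24% and 2.66% were. The 10-library fit also called 2 genes higher, where 12.6% of all genes were, and MCM5, at 0.41, adjusted p = 0.494 in the fit of all libraries, was -0.36, adjusted p = 0.000753 in it.

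The log2 fold change with DAC was lower in the presence of OSI than in its absence for 25 of the 46 genes, by the test of the difference itself (the interaction), and 0 were called in the other direction. Over all genes 1.91% were called lower and 1.01% higher in that test. All 46 interaction estimates were below 0, with a median log2 value of -1.09, against 0.02 over all genes. The largest was that of FAM111B (log2 fold change -2.66, SE 0.29, adjusted p = 0.000424), which had log2 fold changes of 0.39, adjusted p = 0.268 for DAC against Control and -2.27, adjusted p = 8.62e-06 for DAC+OSI against OSI. ORC1 followed (log2 fold change -2.03, SE 0.16, adjusted p = 0.000101), with DAC effects of -0.48 without and -2.51 with OSI. MCM10 (-1.99, adjusted p = 0.000825), GINS2 (-1.92, adjusted p = 0.00236), POLE2 (-1.88, adjusted p = 0.00342) and CDC45 (-1.77, adjusted p = 0.00184) came next. At the other end, TIPIN had -0.02, adjusted p = 0.98 and GMNN -0.39, adjusted p = 0.648. By role, the difference was called for 2 of 5 licensing genes, 3 of 6 ring genes, 4 of 9 firing factors, 3 of 7 polymerase genes, 5 of 5 clamp and loader genes, 2 of 4 joining genes, 3 of 4 fork protection genes and 3 of 6 chromatin partners. The count was 44 in the 10-library fit, where 10.4% of all genes were called lower, and 39 with the GC correction, where 4.78% were, though PCNA lost its call with that correction (-1.14, adjusted p = 0.0689). It was 42 without DAC+OSI 2, where 4.09% were, and 16 both without OSI 2 and without DAC 2, where 1.07% and 1.09% were. The counts by role hold calls that were lost in at least 1 fit without a single library. These were the calls of 9 genes, PCNA, RFC3, RFC4, RFC5, POLA1, POLA2, FEN1, TIMELESS and WDHD1.

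**Figure D4:**
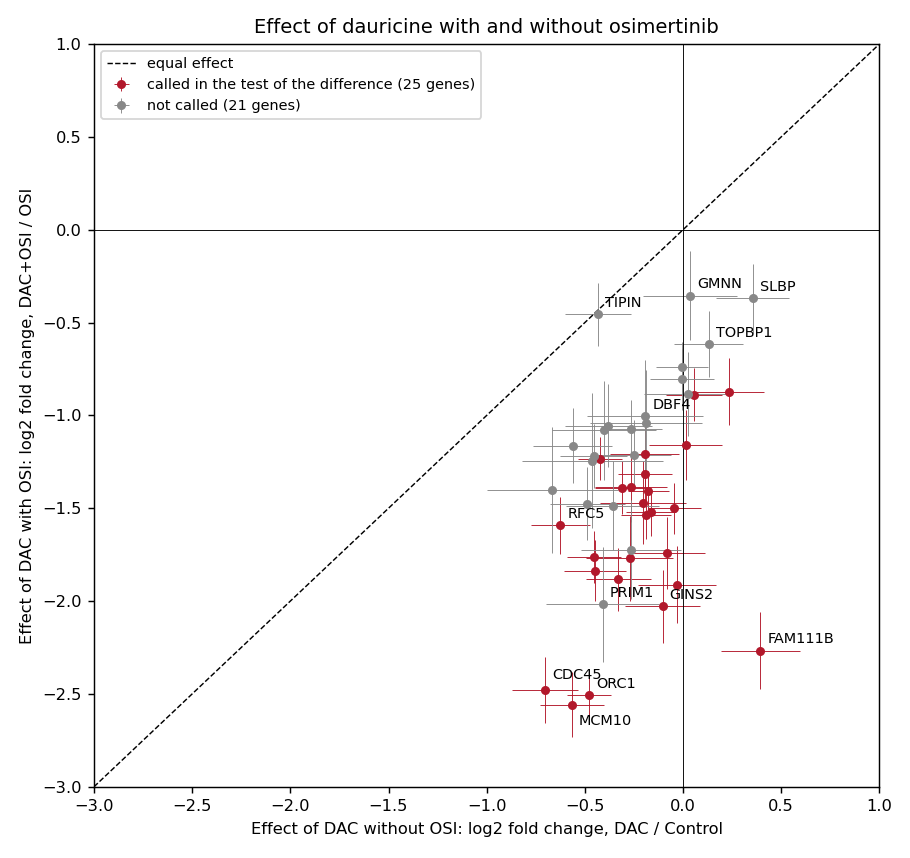
Each point is 1 of the 46 genes, with the log2 fold change of DAC against Control on the x axis and of DAC+OSI against OSI on the y axis, and bars of 1 SE. All points lie below the dashed line of equal effect, with TIPIN on its edge, and the 25 genes called in the test of the difference (red) reach from -0.87 to -2.56 on the y axis.

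Genes of the same pathway outside the list were counted alongside. Of 40 further replication genes, OSI raised 13 and lowered 2 (median 0.43), and DAC+OSI lowered 23 and raised 1 against OSI (median -0.71). Of all genes, 10.6% were called higher and 8.23% lower in OSI against Control. In DAC+OSI against OSI 7.96% were called lower and 9.01% higher. The 2 that OSI lowered were the polymerase delta subunit POLD4 (-0.78, adjusted p = 0.00303) and the topoisomerase TOP1 (-0.68, adjusted p = 0.00212). DAC+OSI lowered 17 and raised 1 against Control (median -0.46), DAC lowered 4 and raised 0 against Control, DAC+OSI lowered 5 and raised 0 against DAC, and the interaction was called for 5, all lower. Of all genes, in the same order, 12.8%, 4.11%, 4.52% and 1.91% were called lower, and 15.4%, 5.33%, 6.1% and 1.01% higher. In OSI against Control the largest changes of the 40 genes were those of RNASEH2A, a ribonuclease subunit that removes ribonucleotides from DNA (1.69, adjusted p = 0.0124), the histone chaperone ASF1B (1.51, adjusted p = 2.16e-06) and the PCNA partner PCLAF (1.22, adjusted p = 0.0286). In DAC+OSI against OSI they were those of ASF1B (-2.67, adjusted p = 3.59e-08), the topoisomerase TOP2A (-2.36, adjusted p = 1.07e-05) and PCLAF (-2.02, adjusted p = 0.00247). Whether the 46 genes differed from these in their rate of calls was not tested.

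Genes of mitosis, which follows S phase, had the same order of mean levels, OSI, Control, DAC and DAC+OSI. OSI raised 10 of 25 and lowered 0 (median 0.50), DAC alone lowered 17 (median -0.75), and DAC+OSI lowered 24 against Control (median -1.78), 25 against OSI (median -2.33) and 24 against DAC (median -1.15), with 0 raised in any of these. The interaction was called lower for 20 (median -1.54). Of all genes, 10.6% were called higher in OSI against Control and 1.91% lower in the interaction. For DAC+OSI 12.8%, 7.96% and 4.52% of all genes were called lower against Control, OSI and DAC. The mean log2 CPM of the mitosis genes was 3.09 to 3.52 in DAC+OSI, 5.48 to 5.63 in OSI, 4.29 to 4.50 in DAC and 4.85 to 5.25 in Control. DAC against Control thus called 17 of 25 mitosis genes and 5 of 46 replication genes, where 4.11% of all genes were called lower, and the 2 shares were not set against each other in a test.

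**Figure D5:**
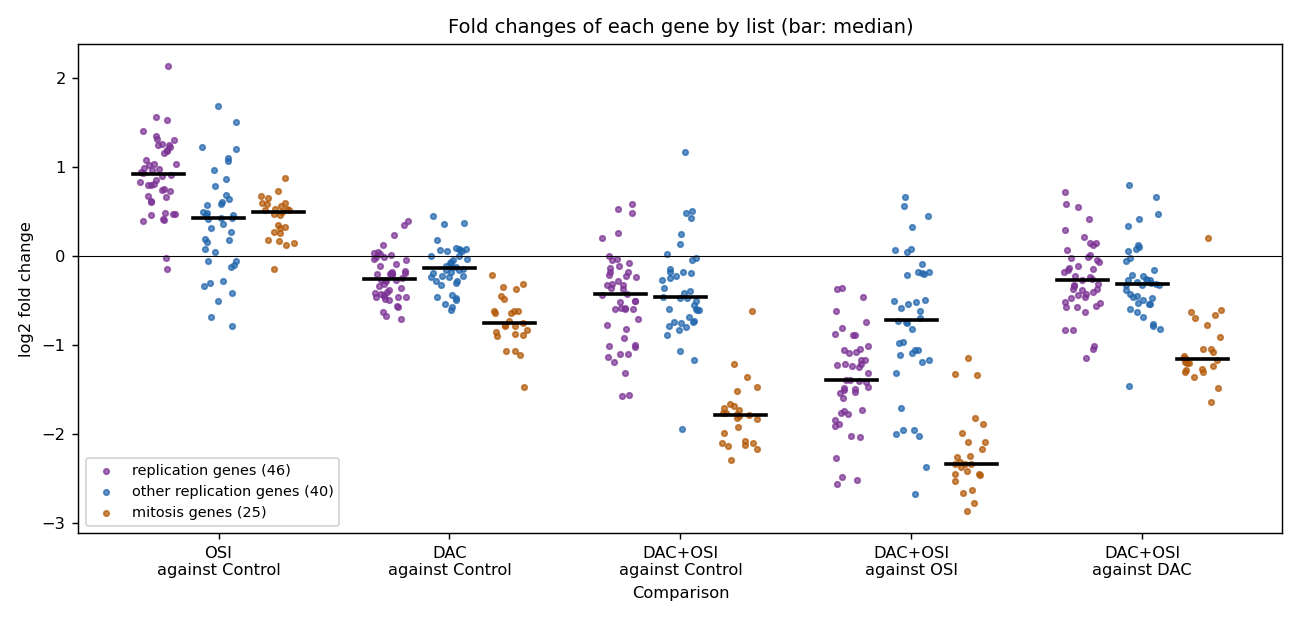
Log2 fold changes of each gene (points) with the median (bar) for the 46 replication genes, 40 other replication genes and 25 mitosis genes in 5 comparisons. The medians of the 3 lists are 0.93, 0.43 and 0.50 in OSI against Control, -0.26, -0.13 and -0.75 in DAC against Control, and -1.39, -0.71 and -2.33 in DAC+OSI against OSI.

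Per kilobase of exonic length, PCNA was the most abundant of the 46 in every group, at 67.7 CPM per kb in DAC+OSI, 187 in OSI, 68.6 in DAC and 79.0 in Control. MCM7 was next, at 22.5 CPM per kb in DAC+OSI, 51.9 in OSI, 21.4 in DAC and 25.4 in Control. POLA2 was the lowest, at 0.422 CPM per kb in DAC+OSI, 0.977 in OSI, 0.417 in DAC and 0.476 in Control. Some of these genes share exonic bases with neighbours in GENCODE 29, and the rule for assigning reads there is not given in the sources, which leaves their levels uncertain to that extent. The longest shared stretches were 814 bases of GINS4 with AC009630.2, 774 of MCM2 with AC023593.1, 579 of TIPIN with RPL9P25, 444 of POLA2 with AP000944.2, 433 of ATAD2 with IMPDH1P6 and 394 of GINS3 with AC009118.2. MCM7 shared 224 bases with AP4M1, RFC5 186 with WSB2, FEN1 166 with TMEM258 and DBF4 142 with SLC25A40. Over the 12 libraries AC009630.2 had 64 counts and AC023593.1 had 75. Some stretches, long and short, had partners with more counts than the gene itself. PRIM1 shared 33 bases with NACA (75231 counts against 2433) and FEN1 49 with FADS2 (124570 against 16410). CHAF1B shared 89 with MORC3 (10601 against 6054), all on the same strand. On the opposite strand, such partners included WSB2 for RFC5 (51021 counts against 14207) and SLC25A40 for DBF4 (13027 against 12348). There RFC4 also shared 21 bases with EIF4A2 and GINS2 7 with GSE1. Whether the libraries kept the strand is not given, so reads of partners on opposite strands cannot be told apart.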

How the data were processed

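Poly(A) RNA of 12 PC9-OR libraries, 3 per group, was captured with oligo(dT) beads, fragmented, primed with random hexamers and amplified by PCR, per the labels' protocols. The authors deposited a table of raw counts per Ensembl gene ID, made with CASAVA, HISAT2 and featureCounts, per the submitters' processing notes. For the versions, genome build, annotation and strand setting, nothing is given in the sources used here. PCR copies were not marked by molecular identifiers, so floors cover counting error only. Symbols were found for 39178 of 39266 IDs, and GC content and exonic lengths from GENCODE 29 for 37919. Depth was 24.9 to 66.9 mega-counts a library.

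Counts were filtered with filterByExpr (20820 genes left), given TMM scaling (trimmed mean of M values) and fitted with the quasi-likelihood test of edgeR 4.0.16 in R 4.3.3 to all 12 libraries with 1 mean per group (biological coefficient of variation 20.9%). Two-sided p-values of each of the 6 comparisons were adjusted over the whole set of genes (Benjamini-Hochberg), and calls were made at an adjusted p under 0.05. Mean log2 CPM used a prior count of 2. The SE of a log2 fold change is its size over the root of the F statistic. The fit was tested on simulated data. The alternatives were DESeq2 1.42.0, relative log expression scaling, no filter on low counts, the compared groups alone, a replicate block, a GC correction by loess, leaving out each library and the 10-library fit, with limma 3.58.1 as a dependency of edgeR.

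The members, roles and lists were chosen with earlier results of these data known. Values in every library are given, in each role, for the 2 members with the smallest adjusted p in OSI against Control, those with the largest and smallest fold change in DAC+OSI against OSI, and any called with opposite signs, the others being given as group means. Genes outside the list are named among the 3 largest changes of their list, where OSI lowered them, or as subunits of the origin recognition complex. Library numbers are those of the labels. Same-numbered libraries of DAC+OSI and Control deviated together over all genes (correlations of 0.285, 0.431 and 0.2). On the data alone, the numbers were taken to pair the libraries for that comparison, in a block fitted to all 12 libraries. These deviations also followed GC content. Spearman rho was -0.478, 0.558 and -0.367 in Control 1, 2 and 3, and -0.507, 0.573 and -0.52 in DAC+OSI 1, 2 and 3. Deviations were taken from the mean of each group, so the 3 correlations of DAC+OSI with Control are not independent of each other. A pairing and a shared trend with GC content cannot be told apart by these correlations, and a pairing was not tested otherwise. Calls made with the block rest on this assumed pairing. Correlations in the other pairs of groups were -0.063 to 0.079, and these were not taken as paired.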

Additional observations from a re-analysis of the deposited data

Results flagged for a closer look

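In 25 of the 46 replication genes the effect of DAC differed between cells with OSI and cells without it, by the interaction test of edgeR with Benjamini-Hochberg adjustment, and all 25 differences were negative on the log2 scale. Among the licensing genes they were -2.03, adjusted p = 0.000101 for ORC1 and -1.39, adjusted p = 0.00495 for ORC6. In the ring they were -1.36, adjusted p = 0.00165 for MCM3, -1.23, adjusted p = 9e-04 for MCM4 and -1.45, adjusted p = 0.00165 for MCM6. Of the firing factors, MCM10 had -1.99, adjusted p = 0.000825, CDC45 had -1.77, adjusted p = 0.00184, GINS2 had -1.92, adjusted p = 0.00236 and GINS4 had -1.08, adjusted p = 0.0101. Of the polymerase genes, POLA1 had -1.11, adjusted p = 0.0342, POLA2 had -1.01, adjusted p = 0.0492 and POLE2 had -1.88, adjusted p = 0.00342. Of the clamp and loader genes, PCNA had -1.27, adjusted p = 0.048, RFC2 had -1.12, adjusted p = 0.00763, RFC3 had -1.5, adjusted p = 0.0217, RFC4 had -1.12, adjusted p = 0.0375 and RFC5 had -0.97, adjusted p = 0.0275. FEN1 had -0.94, adjusted p = 0.0248 and LIG1 had -1.35, adjusted p = 0.00165. In the fork protection group, TIMELESS had -0.81, adjusted p = 0.0158, CLSPN had -1.55, adjusted p = 0.00342 and WDHD1 had -1.17, adjusted p = 0.0295. Of the chromatin partners, CHAF1B had -1.31, adjusted p = 0.00327, ATAD2 had -1.66, adjusted p = 0.00525 and FAM111B had -2.66, adjusted p = 0.000424.

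In 9 of the 25 the call was lost in at least 1 fit that left out a single library. POLA1 lost it without any OSI, DAC or Control library (adjusted p = 0.0524 to 0.0906), and POLA2 without any OSI, DAC or Control library, DAC+OSI 1 or DAC+OSI 3 (adjusted p = 0.0605 to 0.161). PCNA lost it without any OSI, DAC or Control library, DAC+OSI 1 or DAC+OSI 3 (adjusted p = 0.0542 to 0.158). RFC3 lost it without any DAC library, OSI 1 or OSI 2 (adjusted p = 0.0524 to 0.0636), RFC4 without any OSI, DAC or Control library (adjusted p = 0.0665 to 0.106), and RFC5 without any OSI or Control library, DAC+OSI 3, DAC 1 or DAC 2 (adjusted p = 0.0505 to 0.0893). FEN1 lost it without any DAC library, DAC+OSI 1, DAC+OSI 3, OSI 1, OSI 2, Control 1 or Control 3 (adjusted p = 0.0587 to 0.0999). TIMELESS lost it without OSI 2, DAC 2 or DAC 3 (adjusted p = 0.0576 to 0.0628), and WDHD1 without any OSI or DAC library, Control 1 or Control 2 (adjusted p = 0.0527 to 0.0762). The libraries DAC+OSI 2 and Control 2, which followed GC content, enter this test, and without both the call held for all 25. With the GC correction the call of PCNA was lost (-1.14, adjusted p = 0.0689) and the other 24 were kept. PCNA and POLA2 also lost it with relative log expression scaling (adjusted p = 0.0654 and 0.05), and POLA2 without a filter on low counts (adjusted p = 0.107).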

How the results depend on the processing

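Of the 138 calls made for the 46 genes, DESeq2 and the 10-library fit kept all 138, the replicate block kept 137, relative log expression scaling 136, the GC correction 135 and no filter on low counts 127, and a fit of the compared groups alone kept 91 of 113. Leaving out single libraries lost 211 of 1656 repeats of these calls. The 10-library fit drops libraries picked in these data for standing apart, so its keeping of the calls is not an independent check. It called more of all genes, with 21.5% against 10.6% higher in OSI against Control and 10.4% against 1.91% lower in the interaction. Called lower in DAC against Control were 10 genes with the compared groups alone, 21 in the 10-library fit, 12 with the GC correction and 0 to 15 with single libraries left out, and called higher were 0 to 2. For DAC+OSI against Control the compared groups alone gave 11 lower and the 10-library fit 33, and the number higher was 2 without a filter, 1 with DESeq2, 1 with the replicate block, 1 in the 10-library fit, 1 with the GC correction, 2 with the replicate block and the GC correction together (chosen after seeing the data), and 0 to 1 with single libraries left out. For DAC+OSI against DAC the compared groups alone gave 2 lower, the 10-library fit 17 and single libraries left out 2 to 10, and the number higher was 3 without a filter, 1 with the replicate block and 2 in the 10-library fit. The interaction was called lower for 44 in the 10-library fit, 39 with the GC correction and 16 to 42 with single libraries left out, and OSI against Control called 1 lower in the 10-library fit. MCM5 in DAC+OSI against DAC was -0.36 in the 10-library fit, against 0.41 in the fit of all libraries. Of 2354 checks of results called in neither fit, 113 had the other sign. The replicate block gave 40 higher in OSI against Control, 6 lower in DAC against Control and 43 lower in DAC+OSI against OSI. It gave 10 lower in DAC+OSI against DAC and 31 lower in the interaction. In these comparisons the library numbers were not taken to pair the libraries. Where no share of all genes is given beside a count of these alternative fits, the count cannot be read against that share. The causes of these changes were not tested. DAC+OSI 2 was the shallowest library, and what its depth did to genes with low counts was not tested.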
